A study of Mus musculus with 80 samples.

Results

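The genes described here were 10 members of 2 enzyme groups that answer to calcium, calmodulin and diacylglycerol. They were chosen by name, and all 10 were found among the 25160 genes listed for the series. In the calcium/calmodulin group were the 4 subunit genes of calcium/calmodulin-dependent protein kinase II (CaMKII), Camk2a, Camk2b, Camk2d and Camk2g, together with Camk4, Camkk2 and Camkv. The diacylglycerol kinases were Dgkz, Dgkb and Dgki. Values were TPM (transcript abundance scaled to gene length and to the total of each cell) in 80 single cells that FACS had picked from adult mouse dorsomedial striatum. Over the listed genes, the values of a cell summed to between 506588 and 958040 TPM (median 852943), not to a shared total. The mice were heterozygous for 2 transgenes, Drd1a-TdTomato and Drd2-EGFP, so cells of both groups carried both alleles and differed in the reporter that was lit. Both reporters are bacterial artificial chromosome transgenes, driven by regulatory sequence of a dopamine receptor gene, and any cell type that uses that sequence can be sorted with the group. The study describes 3 animals, those injected with a nuclear dye being female, and the labels do not tie cells to animals.

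Of 40 cells labelled Drd1 all were taken as D1 medium spiny neurons (D1 MSN). Of 40 cells labelled Drd2, 38 were taken as D2 MSN, and 2 that held Chat at more than 100 TPM are described apart as cholinergic interneurons (ChI). Because no animal is named for a cell, each group was 1 sample, and no test over samples was possible. Differences are therefore given as log2((mean TPM of D1 MSN + 1)/(mean TPM of D2 MSN + 1)), with the same value within each of the 2 large plates as the measure of spread. A gene was counted as found in a cell above 1 TPM, with exact Clopper-Pearson 95% intervals, which cover counting error only. TPM keeps no read counts, so the depth of a cell is unknown, and a gene without signal is said to be listed at 0.

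CaMKII is a large holoenzyme built of alpha, beta, delta and gamma subunits. Calcium-bound calmodulin opens each subunit, and neighbouring subunits then phosphorylate each other on a threonine that keeps the kinase active after calcium has fallen. In forebrain neurons it is among the most abundant proteins of the postsynaptic density. Camkk2 encodes a kinase that switches on CaMKIV, the nuclear kinase encoded by Camk4, which in turn phosphorylates the transcription factor CREB. Camkv encodes a calmodulin-binding relative of these kinases that lacks kinase activity. Diacylglycerol kinases turn diacylglycerol, the membrane lipid released by phospholipase C, into phosphatidic acid, and so end the signal that reaches protein kinase C and the RasGRP proteins.

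The coding stretch around the regulatory threonine is printed for 3 of the 4 subunits, to show how alike these relatives are in protein and in RNA. That of Camk2a is not shown here. The codons run from residue 284 to residue 308, in sense direction, from the principal transcripts of GENCODE M21 (GRCm38), and the capitals mark the codon of the threonine at residue 287.
Camk2b: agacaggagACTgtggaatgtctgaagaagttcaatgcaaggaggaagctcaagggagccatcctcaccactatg
Camk2d: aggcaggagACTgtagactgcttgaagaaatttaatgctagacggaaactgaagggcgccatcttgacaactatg
Camk2g: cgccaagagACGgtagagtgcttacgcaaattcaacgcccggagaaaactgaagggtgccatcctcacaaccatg
Over these 75 bases, Camk2b and Camk2d differed at 16 bases, 13 of them at the third position of a codon, and in 1 of 25 residues. Camk2b and Camk2g differed at 22 bases and 1 residue, and Camk2d and Camk2g at 20 bases and 2 residues. The protein stretch is thus nearly shared while the RNA is not. Of all stretches of 75 bases, the length of 1 read, in the annotated transcripts of the 10 members, 0 were found in a transcript of another member, so exact matching alone could separate them.

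The number of genes found varied widely between cells. D1 MSN had 648 to 8657 genes above 1 TPM (median 5722), and D2 MSN 1215 to 7942 (median 4927.5). Plate FACS051_5 held 18 D1 and 16 D2 MSN, plate FACS086_4 held 21 and 19, and plate FACS086_9 held 1 and 3. In 3 of the MSN fewer than 2000 genes were found, among them the D1 MSN with 648. In a further D1 MSN, in well D04 of FACS051_5, the astrocyte gene Aldoc stood at 10427 TPM and Drd1 at 2.03 TPM. The labelled cell types could be checked against markers: 38 of 40 D1 and 38 of 38 D2 MSN had at least 3 of 8 MSN markers above 10 TPM. At least 3 of 5 D1 markers were above that level in 32 of 40 D1 and 0 of 38 D2 MSN, and at least 3 of 5 D2 markers in 27 of 38 D2 and 0 of 40 D1 MSN. At least 3 markers of cholinergic interneurons (5 listed), other interneurons (3 of 6 listed) or cortical neurons (4 of 5 listed) were above 10 TPM in 0 of the 78 MSN, with 1 D1 MSN each for oligodendrocytes and astrocytes. Microglia and endothelial cells had 2 listed markers each, whose sums reached 20.8 and 277 TPM in an MSN. Summed oligodendrocyte markers ran from 0 to 348 TPM in D1 MSN (median 3.85) and from 0 to 107 in D2 MSN (6.11), and summed astrocyte markers from 0 to 13896 (1.36) and from 0 to 225 (0.579). What these cells contributed to the differences below was tested by leaving out the cells with few genes and the cell in D04.

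**Figure D1:**
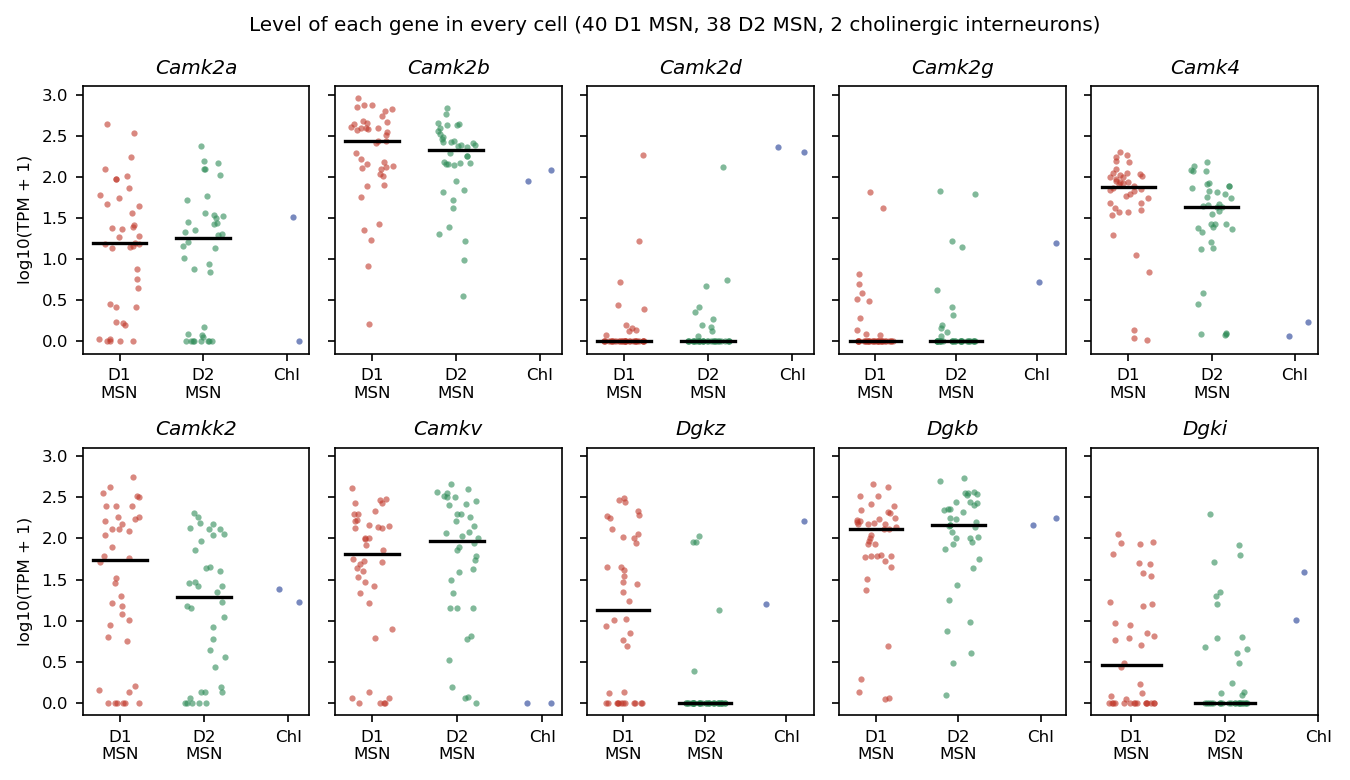
Level of each member, as log10(TPM + 1), in every cell of 3 groups: D1 MSN (red, 40 cells), D2 MSN (green, 38 cells) and cholinergic interneurons (ChI, blue, 2 cells). Black lines are medians over the MSN of a group; Camk2b, Camk4 and Dgkb fill nearly every MSN, Dgkz sits at 0 in 33 of 38 D2 MSN, and Camk2d is high in both ChI.

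Taken over all 78 MSN, the members fell in a wide order of abundance. TPM are scaled to gene length, but uneven coverage along a transcript, which was not tested here, can shift the levels of different genes against each other. Camk2b had the highest median, 239 TPM, followed by Dgkb at 139, Camkv at 79.8, Camk4 at 57.3, Camkk2 at 26.6 and Camk2a at 14.95 TPM. Dgki had a median of 0.289 TPM, and the medians of Dgkz, Camk2d and Camk2g were listed at 0. Neighbours in this order were not separated beyond the spread of cells, since the interquartile range of Camk2b (111 to 391.8 TPM) overlapped that of Dgkb (59.6 to 222), and this in turn that of Camkv (16.7 to 193). Camk2b did lie clear of Camk2a, whose interquartile range was 0.681 to 41.1 TPM. An MSN held a median of 7 of the 10 members above 1 TPM, 7 in D1 MSN and 6 in D2 MSN. All 10 were found together in at least 1 D1 MSN and none in the D1 MSN with 648 genes.

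By TPM in these sorted cells, Camk2b had most of the signal of the CaMKII subunit genes. Different genes are compared here, so uneven coverage along transcripts, which was not tested, could shift their shares. Camk2b (chromosome 11, 5969644 to 6066362, minus strand, GRCm38) encodes the subunit that ties the holoenzyme to actin. It ran from 0.624 through a median of 272 to 908 TPM in D1 MSN and from 2.54 through 213 to 687 TPM in D2 MSN. It passed 1 TPM in 39 of 40 D1 MSN (97.5%, interval 86.8 to 99.9%) against 38 of 38 D2 MSN (100%, interval from 90.7%). Both distributions covered the same range, and the one D1 MSN without it was the cell with 648 genes. Its log2 fold was 0.45, with 0.20 on plate FACS051_5 alone and 0.62 on plate FACS086_4 alone.

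Camk2a (chromosome 18, 60925618 to 60988152, plus strand) encodes the alpha subunit, the main CaMKII subunit of cortical and hippocampal excitatory neurons. Its values spanned 0 to 434 TPM in D1 MSN (median 14.6) and 0 to 234 TPM in D2 MSN (median 16.9). Levels above 1 TPM occurred in 31 of 40 D1 MSN (77.5%, interval 61.5 to 89.2%) against 26 of 38 D2 MSN (68.4%, interval 51.3 to 82.5%). The groups overlapped throughout, with the mean higher in D1 MSN and the median higher in D2 MSN. The log2 fold of the means was 0.40 over all plates, 0.68 within FACS051_5 and 0.06 within FACS086_4, and leaving out the D1 MSN at 434 TPM alone took it to 0.07. Among cells with at least 5000 genes the fold was on the D2 side, at -0.19.

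Camk2d and Camk2g, the subunits also found widely outside the brain, were scarce in MSN, and neither reached the mean of 10 TPM asked of a gene for a call. Camk2d (chromosome 3, 126596302 to 126846326, plus strand) exceeded 1 TPM in 5 of 40 D1 MSN (12.5%, interval 4.19 to 26.8%) against 5 of 38 D2 MSN (13.2%, interval 4.41 to 28.1%). A single D1 MSN at 182 TPM held 87.9% of the D1 total and a single D2 MSN at 130 TPM held 90.5% of the D2 total. The next highest values were 15.5 and 4.61 TPM, so the log2 fold of 0.36 rested on a pair of cells and ran from -1.55 to 2.17 when 1 cell was left out. Camk2g (chromosome 14, 20734875 to 20794088, minus strand) was found in 7 of 40 D1 MSN (17.5%, interval 7.34 to 32.8%) against 7 of 38 D2 MSN (18.4%, interval 7.74 to 34.3%). Its highest values were 64.3 TPM in D1 and 67.3 TPM in D2 MSN, and its fold of -0.38 had opposite signs on the large plates, 0.78 on FACS051_5 and -0.23 on FACS086_4. The value on FACS051_5 rested on the D1 MSN in well D04, at 41.5 TPM, since no other D1 MSN of that plate passed 2.86 TPM. Without the cell in D04 the fold over all plates was -0.77.

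Set against each other within the family, the 4 genes had similar shares in both subtypes over all cells, but not on each plate. Camk2b made up 84.6% of the summed mean TPM in D1 MSN and 83.6% in D2 MSN. The share of Camk2a was 13.1% in D1 MSN and 13.4% in D2 MSN. Within plates the subtypes differed in opposite directions, since the share of Camk2a was 11.6% in D1 and 8.51% in D2 MSN on FACS051_5 but 15.3% and 20.9% on FACS086_4. Single cells were more one-sided than the mean: the median share of Camk2a within a cell was 4.83% in D1 and 6.43% in D2 MSN. Camk2a exceeded Camk2b in 8 of 78 MSN, 5 D1 and 3 D2. No MSN had Camk2a, Camk2d or Camk2g above 1 TPM without Camk2b, which was itself found in 77 of 78 MSN, so this says little.

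**Figure D2:**
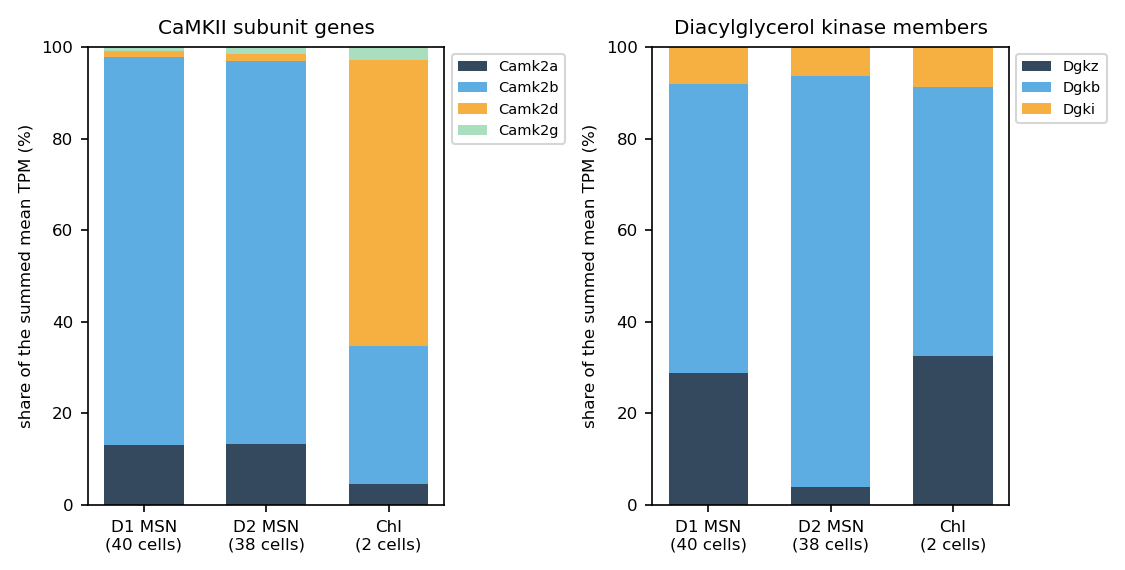
Stacked bars of the share (%) that each gene holds of the summed mean TPM of its family, for the CaMKII subunits (left) and the 3 diacylglycerol kinases (right), in D1 MSN, D2 MSN and ChI. Camk2b holds 84.6% and 83.6% in the MSN while Camk2d holds 62.6% in the ChI, and Dgkz holds 28.8% in D1 against 4.04% in D2 MSN.

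The nuclear arm, Camkk2 and Camk4, stood higher on average in D1 MSN. Camk4 (chromosome 18, 32934931 to 33191228, plus strand) had values from 0.0328 through a median of 74.7 to 202 TPM in D1 MSN and from 0.199 through 42.1 to 151 TPM in D2 MSN. It was present in 37 of 40 D1 MSN (92.5%, interval 79.6 to 98.4%) against 34 of 38 D2 MSN (89.5%, interval 75.2 to 97.1%), so the subtypes differed in level rather than in the number of cells. The ranges overlapped, with the D1 median above the D2 upper quartile of 71.5 TPM over all plates. By plate, the medians in D1 and D2 MSN were close on FACS051_5 (63.4 and 57.8 TPM) and apart on FACS086_4 (84.5 and 25.8 TPM). The log2 fold was 0.66, with 0.38 and 0.81 on the large plates, and stayed between 0.60 and 0.75 when any 1 cell was left out. Among cells with at least 5000 genes, all 27 D1 and all 17 D2 MSN had Camk4, at medians of 85.0 and 54.0 TPM.

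Camkk2 (chromosome 5, 122731170 to 122779409, minus strand) was the more variable of the pair. D1 MSN ran from 0 through a median of 53.9 to 559 TPM, and D2 MSN from 0 through 18.4 to 203 TPM. More than 1 TPM was seen in 31 of 40 D1 MSN (77.5%, interval 61.5 to 89.2%) against 28 of 38 D2 MSN (73.7%, interval 56.9 to 86.6%), and more than 100 TPM in 17 D1 and 9 D2 MSN. The upper values were thus mostly D1 while the lower values overlapped. Its log2 fold of 1.23 passed 1 over all cells and on FACS051_5 (1.45) but not on FACS086_4 (0.70). It was 0.85 without FACS051_5, and 0.66 among cells with at least 5000 genes, where the medians were 110 TPM in D1 and 91.4 TPM in D2 MSN. Camk4 was found in 58 of the 59 MSN with Camkk2, but also in 71 of all 78 MSN, so the overlap says little of the pair.

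Camkv (chromosome 9, 107935674 to 107949691, plus strand) leaned the other way. Its values ran from 0 through a median of 63.5 to 413 TPM in D1 MSN and from 0 through 93.6 to 462 TPM in D2 MSN. It passed 1 TPM in 33 of 40 D1 MSN (82.5%, interval 67.2 to 92.7%) against 34 of 38 D2 MSN (89.5%, interval 75.2 to 97.1%). The mean was lower in D1 MSN by a log2 fold of -0.43, and by -0.62 and -0.70 on the large plates. The 4 cells of FACS086_9 went against this, since their 1 D1 MSN held the highest D1 value, 413 TPM, and the 3 D2 MSN reached 41.6 TPM at most. The shift stayed under a log2 fold of 1 in size on both large plates. With each cell rescaled to 1 median of its found genes, the fold of Camkv was -0.079.

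Dgkz separated the subtypes most of all the members. It encodes diacylglycerol kinase zeta, which in neurons binds PSD-95 and helps keep dendritic spines, and lies on chromosome 2 from 91932824 to 91975864 on the minus strand. In D1 MSN it ran from 0 through a median of 12.9 to 307 TPM. In D2 MSN it ran from 0 through a median of 0 to 107 TPM, and 33 of 38 cells were listed at 0. The 5 D2 MSN above 1 TPM stood at 107, 90.0, 89.1, 12.6 and 1.47 TPM. The groups therefore overlapped in both directions, since 12 of 40 D1 MSN were listed at 0 as well.

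Dgkz exceeded 1 TPM in 26 of 40 D1 MSN (65.0%, interval 48.3 to 79.4%) against 5 of 38 D2 MSN (13.2%, interval 4.41 to 28.1%). By plate the counts were 14 of 18 D1 and 3 of 16 D2 MSN on FACS051_5, 11 of 21 and 2 of 19 on FACS086_4, and 1 of 1 and 0 of 3 on FACS086_9. Genes per cell moved with the subtype in opposite directions on these plates, with medians of 5109 in D1 and 5923 in D2 MSN on FACS051_5 and of 5730 and 4617 on FACS086_4. Among cells with at least 5000 genes the counts of Dgkz were 21 of 27 D1 and 3 of 17 D2 MSN, and its log2 fold was 2.08. The log2 fold was 2.82 and stayed between 2.67 and 3.34 when any 1 MSN was left out, but it came to 1.46 within FACS051_5 and to 5.13 within FACS086_4. Its size depended on the plate: the 3 D2 MSN near 100 TPM were all on FACS051_5, and without that plate the fold was 5.46, while the fold without FACS086_4 was 2.02. The share of cells was 51.8 percentage points higher in D1 MSN. Among the 7642 genes that averaged 10 TPM or more over the MSN, 5 had a D1 excess of at least that size. They were Drd1, Isl1, Slc35d3, Asic4 and Dgkz itself, against a median D1 excess of 3.42 points over the 7642 genes. Dgkz met the mean of 10 TPM through its D1 values, its D2 mean being 7.91 TPM. The same held for Drd1, Isl1 and Slc35d3, with D2 means of 0.455, 0.0902 and 0.0530 TPM. Genes high in D1 MSN alone can pass such a filter, so this rank is a description only. Excesses in D2 MSN were not counted. Markers of D2 MSN had large ones, as with Gpr6, above 1 TPM in 0 of 40 D1 and 30 of 38 D2 MSN.

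**Figure D3:**
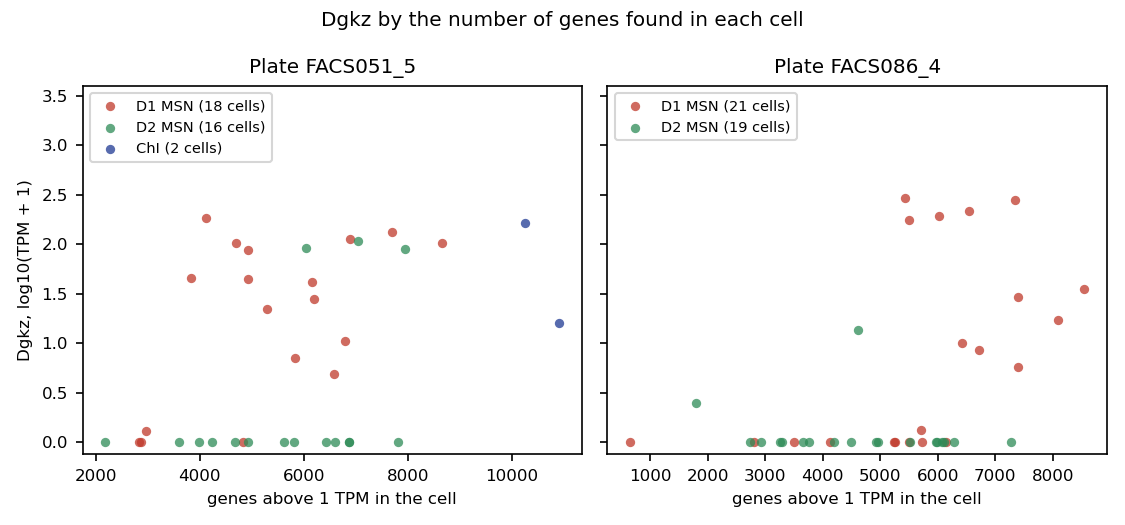
Dgkz, as log10(TPM + 1), against the number of genes above 1 TPM in the same cell, for D1 MSN (red), D2 MSN (green) and ChI (blue) on the 2 large plates. D2 MSN lie at 0 over most of the range of gene numbers, with 3 cells near 100 TPM on FACS051_5, whereas 14 of 18 and 11 of 21 D1 MSN are above 1 TPM.

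The genes around Dgkz, chosen for description after their values were seen, include 1 that lies close to its 3′ end. Mdk, the gene of the growth factor midkine, lies 526 bases beyond the 3′ end of Dgkz on the same strand (91929805 to 91932297). Mdk was above 1 TPM in 11 of 40 D1 and 1 of 38 D2 MSN, with a log2 fold of 3.49, and 4.17 and 2.52 on the large plates. Its means were 11.2 TPM in D1 and 0.0844 TPM in D2 MSN, under the mean of 10 TPM over the MSN asked for a call. A single D1 MSN stood at 277 TPM, so the fold leaned on that cell. Mdk showed the same direction as Dgkz, partly in the same cells: 9 D1 MSN had both, 17 had Dgkz alone and 2 had Mdk alone. Dgkz was found in 26 of all 40 D1 MSN, so this overlap says little. Chrm4, the muscarinic M4 receptor gene on the plus strand, ends at 91928688 in GENCODE and at 91929835, within Mdk, in RefSeq. Signal beyond the shorter end may not be in the deposited value of Chrm4, so its level is not given. Whether reads of one of these genes were counted for another was not tested. Of the genes annotated inside Dgkz, Mir6999 stood at 831 TPM in 1 D2 MSN and passed 1 TPM in no other MSN. Gm9821 did not pass 3.42 TPM in any MSN. Farther off, at 222247 bases, Atg13 also had folds past 1 on both large plates (1.37 and 2.51). Harbi1, Ambra1 and Phf21a had opposite signs on these plates.

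Dgkb (chromosome 12, 37817726 to 38634239, plus strand) encodes diacylglycerol kinase beta, a calcium-binding isoform long known for its abundance in the striatum. It ran from 0.107 through a median of 129 to 463 TPM in D1 MSN and from 0.238 through 145 to 543 TPM in D2 MSN. Levels above 1 TPM occurred in 36 of 40 D1 MSN (90.0%, interval 76.3 to 97.2%) against 37 of 38 D2 MSN (97.4%, interval 86.2 to 99.9%). The subtypes overlapped almost fully. The mean was lower in D1 MSN by a log2 fold of -0.37, with -0.80 on FACS051_5 and -0.19 on FACS086_4. Without FACS051_5 the fold was -0.0014, and with each cell rescaled to 1 median of its found genes it was -0.037.

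Dgki (chromosome 6, 36846022 to 37300184, minus strand) encodes diacylglycerol kinase iota, the closest relative of the zeta isoform. It ran from 0 to 112 TPM in D1 MSN (median 1.89) and from 0 to 196 TPM in D2 MSN (median 0). It was present in 21 of 40 D1 MSN (52.5%, interval 36.1 to 68.5%) against 13 of 38 D2 MSN (34.2%, interval 19.6 to 51.4%). A single D2 MSN held 41.5% of the D2 total, and without it the log2 fold of 0.46 became 1.13. On the large plates it was 1.17 and 0.02, so its size differed between plates.

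Within the 3 diacylglycerol kinases the make-up differed between subtypes. Dgkz held 28.8% of the summed mean TPM in D1 MSN and 4.04% in D2 MSN, while Dgkb held 63.1% and 89.6%. On FACS051_5 the share of Dgkz was 26.7% in D1 and 7.43% in D2 MSN, and on FACS086_4 it was 27.7% and 0.419%. The D1 share was thus the higher on each plate. Each of the 31 MSN with Dgkz and each of the 34 with Dgki also had Dgkb above 1 TPM. Dgkb was found in 73 of all 78 MSN, so this overlap says little. Dgkz exceeded Dgkb in 6 D1 and 0 D2 MSN.

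Counted together, 8 of the 10 members averaged 10 TPM or more over the MSN. A log2 fold above 1 was seen in 2 of the 8, Dgkz and Camkk2, where 12.4% of all 7642 genes with that mean had one, and a fold below -1 in 0 of the 8, against 9.58%. With the fold asked on both large plates, 1 of 8, Dgkz, was higher in D1 MSN (4.48% of all genes) and 0 of 8 in D2 MSN (3.79%). Dgkz met the mean of 10 TPM through its D1 values, its D2 mean being 7.91 TPM. With so few members these counts lay near the background and say little of the group as a whole. The median fold of the 8 was 0.46, beside 0.01 over all genes, with 6 of 8 above 0 beside 50.7%. In all 8 the sign was the same on both large plates, as it was in 50.6% of all genes past the same filter and in 53.6% of the 3448 genes found in at least 50% of the MSN. For Dgki (0.02) and Camk2a (0.06) the fold on FACS086_4 was so small that its sign there says little. Over all genes, 949 were past 1 on the D1 side and 732 on the D2 side. Rescaling each cell to 1 median of its found genes moved the median fold of all genes to 0.21 and this split to 1500 and 696, and with the mean of log2 values the split was 643 and 235.

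**Figure D4:**
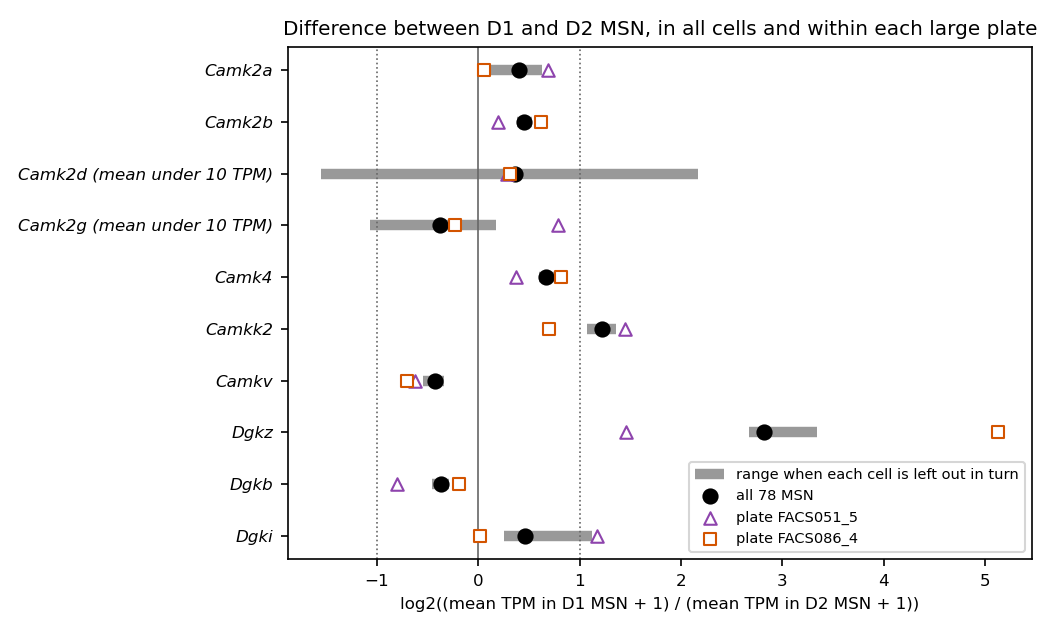
Log2 fold of D1 over D2 MSN for each member over all 78 MSN (black), within plate FACS051_5 (triangles) and within plate FACS086_4 (squares). Grey bars span the values when each cell is left out in turn, and dotted lines mark -1 and 1; Dgkz lies past 1 on both plates, Camkk2 on FACS051_5 alone, and the bar of Camk2d runs from -1.55 to 2.17.

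The 2 cholinergic interneurons differed from the MSN in which kinase genes they held. Both came from FACS051_5 and had more genes than any MSN, 10912 in well A08 and 10251 in well B02. Camk2d stood at 230 and 201 TPM, above the highest of 78 MSN (182 TPM), as did 1.09% of all 25160 genes, and no other member was above all MSN in both. Camk2d made up 62.6% of the summed mean TPM of the CaMKII genes in these cells, and Camk2b 30.2%.

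Camk4 and Camkv were near the floor in the ChI. Camk4 stood at 0.700 and 0.169 TPM, where 71 of 78 MSN were above both values, and Camkv was listed at 0 in both, where 73 of 78 MSN were above 0. Camkk2, at 23.2 and 16.01 TPM, and Dgkb, at 145 and 177 TPM, lay inside the range of the MSN. Dgkz was present in both, at 15.2 and 164 TPM, so with the ChI kept in the Drd2 group the fold of Dgkz became 2.28, and 0.95 on FACS051_5. With 2 cells the spread within the type is not known beyond these pairs of values.

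Across MSN the abundant members varied together, as far as cells of shared plates and unequal gene numbers can show. As Pearson r of log2(TPM + 1) over 78 cells, Camk2b went with Camkk2 at 0.60 and with Dgkb at 0.57, and Dgkz with Dgki at 0.06. Each member was also related to the number of genes found in a cell, from 0.09 for Camk2d to 0.66 for Camk2b, so these values describe the cells as much as the genes. Dgkz and Dgki were found together in 14 MSN, alone in 17 and 20.

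The genes most like each member were searched among the 3448 genes found in at least 50% of the MSN, for the 6 members among them. Camk2b was most like Ndrg4 (r = 0.76), Ppp3ca, the catalytic subunit of calcineurin (0.71), and Ppp1r1b, which encodes DARPP-32 (0.70), where the median r over all genes was 0.28. These 3 were again the likest after each subtype and plate was centred on its own mean. Camk4 was most like Ndrg4 (0.66), the calcium pump gene Atp2b2 (0.64) and App (0.64). Camkk2 went with Cyp46a1 (0.61), Scn4b (0.61) and Camk2b (0.60). Camkv was closest to Prkcb (0.65), Rgs4 (0.60) and Arf3 (0.59), and Dgkb to Nckap1 (0.67), Atp2b1 (0.66) and Ppp2ca (0.66). Camk2a had the weakest neighbours, Tenm4 (0.54), Ube3a (0.49) and Rnf112 (0.49). Of these 18 names, 9 stayed among the likest 3 after centring and 7 with Spearman rho, so the order below the first places was loose.

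Other genes of the same pathways were taken from 9 lists of 65 genes, of which 63 were in the data and 36 averaged 10 TPM or more. On both large plates, 2 of the 36 were past a log2 fold of 1 on the D1 side, Dgke and Prkca, and 0 on the D2 side. Over all cells, 5 were past 1 on the D1 side and 0 on the D2 side, and the median fold was 0.35. Of all genes with that mean, 4.48% and 3.79% were past 1 on both plates on the D1 and D2 sides. Over all cells it was 12.4% and 9.58%, with a median fold of 0.01. Dgke averaged 10.8 TPM over the MSN but 4.87 TPM in D2 MSN, so it met the mean through its D1 values. So did the calcineurin gene and the CREB coactivator gene counted past 1 over all cells, with D2 means of 5.43 and 6.01 TPM. That calcineurin gene passed 1 TPM in only 5 of 40 D1 and 4 of 38 D2 MSN. With so few genes these counts say little of the pathways.

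Among calmodulin and its buffers, 0 of the 6 listed genes with enough signal were past 1. Calm2 averaged 4349 TPM in D1 and 4702 TPM in D2 MSN (log2 fold -0.11). Pcp4, a small calmodulin-binding protein, averaged 3875 and 2385 TPM (0.70, with 0.73 and 0.55 on the large plates). Nrgn, which holds calmodulin at rest, was above 1 TPM in all 78 MSN but stood at 23.4 and 1.45 TPM in the ChI.

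Among the other calmodulin-dependent kinases, 0 of the 5 with enough signal were past 1. Pnck, encoding CaMKI beta, averaged 50.7 TPM in D1 and 43.2 TPM in D2 MSN (0.23), with opposite signs on the plates (2.67 and -1.56). Camk1g and Camk1d, which encode CaMKI gamma and delta, had folds of 0.42 and 0.71. The CaMKII inhibitor Camk2n1 averaged 164 and 101 TPM (0.69, with 0.54 and 0.85), while Camk2n2 was above 1 TPM in 2 of 40 D1 MSN and none of the 38 D2 MSN, which by a floor of 3 counts, in place of the exact interval, allows up to 7.89%. It stood at 67.6 and 93.4 TPM in the ChI.

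Calcineurin, the calmodulin-dependent phosphatase that opposes these kinases, had 1 of 4 genes past 1 and none on both plates. Its catalytic subunit gene Ppp3ca averaged 1307 TPM in D1 and 992 TPM in D2 MSN (0.40), Ppp3r1 388 and 303 TPM (0.36) and Ppp3cb 146 and 96.5 TPM (0.59). Ppp3ca was far lower in the ChI, at 59.0 and 51.5 TPM. Of CREB and its coactivators, 1 of 6 was past 1 and none on both plates, and Crebbp, Creb1 and Crem had folds of 0.69, 0.65 and -0.91. The last 2 had opposite signs on the large plates (1.52 and -1.11 for Creb1, -1.82 and 1.96 for Crem).

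On the lipid side, Dgke, the diacylglycerol kinase with a preference for arachidonoyl lipids, was found in 20 of 40 D1 and 12 of 38 D2 MSN. Its means were 16.5 and 4.87 TPM, and its log2 fold was 1.57 in all and 1.43 and 1.20 on the large plates. Of the other diacylglycerol kinases Dgkh averaged 21.7 and 15.3 TPM (0.48), and Dgkd, under the mean of 10 TPM, 5.38 and 11.7 TPM. Only Plcb1 of the phospholipases C had enough signal, at 133 and 126 TPM (0.07), and Plcg1 and Plcb4 averaged 3.98 and 3.91 TPM over the MSN.

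Of the proteins that bind diacylglycerol, Prkca was past 1 on both plates. This protein kinase C gene averaged 25.8 TPM in D1 and 10.5 TPM in D2 MSN (1.21, with 1.16 and 2.11) and was found in 21 of 40 and 14 of 38 cells. The most abundant genes of the list differed less: Prkcb averaged 766 and 602 TPM (0.35), Chn1 723 and 636 TPM (0.18) and Rasgrp2 133 and 164 TPM (-0.30). Of the diacylglycerol lipases and phosphatidic acid enzymes, 2 of 11 averaged 10 TPM or more, and none was past 1. Cds2 averaged 11.4 and 17.9 TPM (-0.61) and Plpp1 9.54 and 17.1 TPM (-0.78), while Plpp3 averaged 19.0 TPM in D1 MSN with all of it above 1 TPM in 1 cell.

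**Figure D5:**
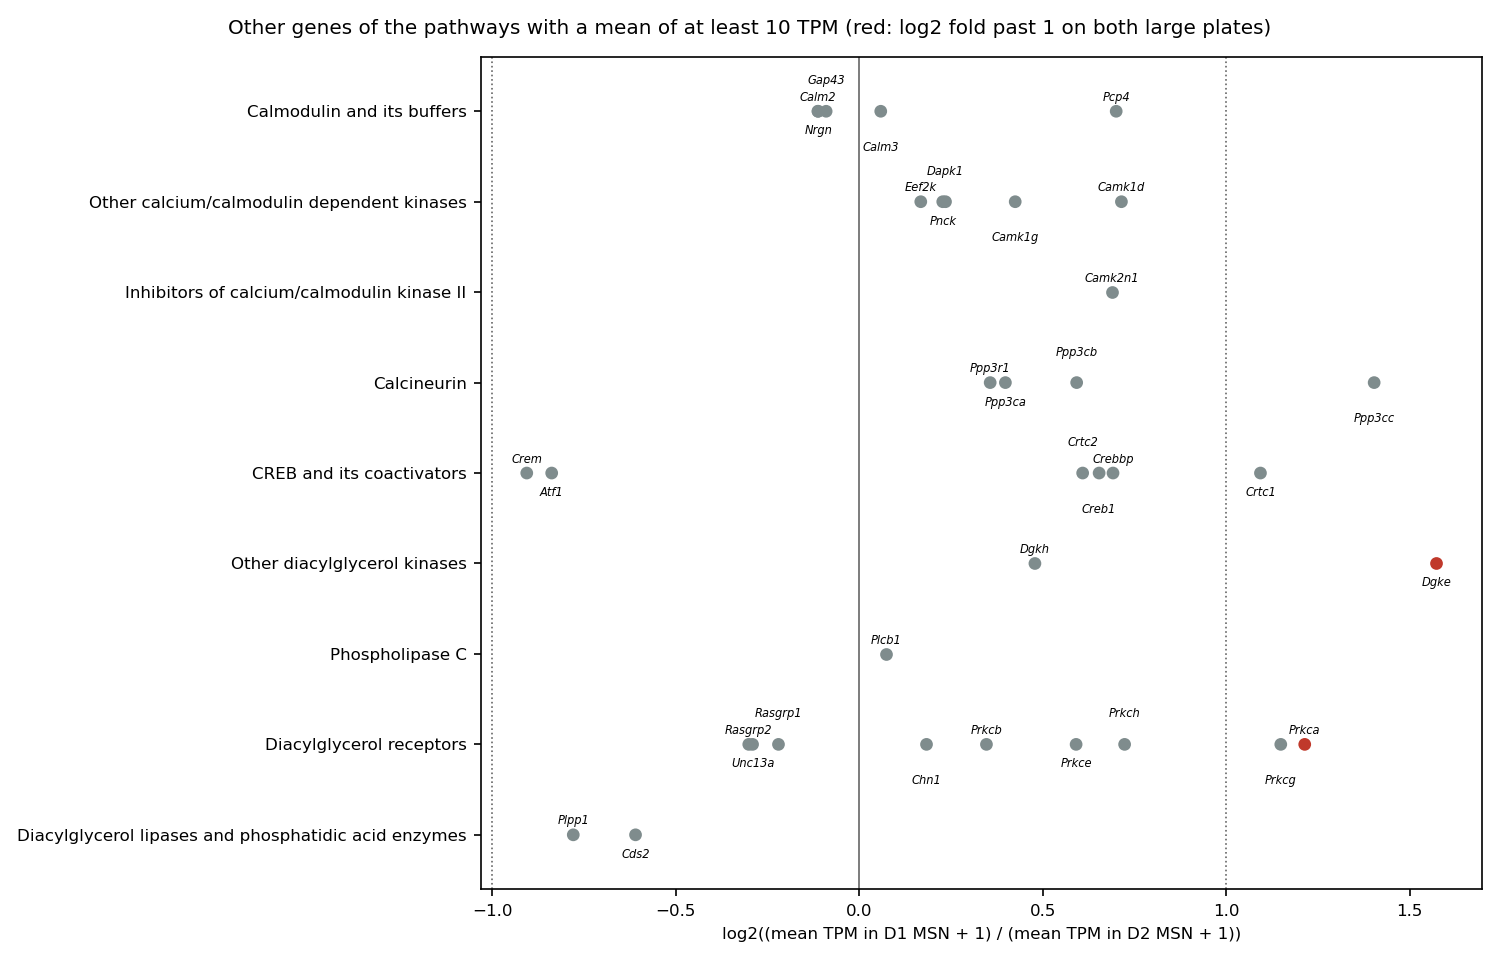
Log2 fold of D1 over D2 MSN for the listed pathway genes that average 10 TPM or more, 1 row per list, each point a gene, with 1 of the 36 not drawn. Red points are past 1 on both large plates, namely Dgke and Prkca; dotted lines mark -1 and 1, and no point lies below -1.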

How the data were processed

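Single cells were sorted by FACS, cDNA was made with the SMARTer Ultra Low Input kit and sequenced by the authors, whose TPM values per gene and cell were deposited as 1 table. The submitters' processing notes name STAR 2.5.0, featureCounts 1.5.1 and GRCm38/mm10; how TPM were made is not given in the sources used here. Reads were not counted anew, and 0 columns of per-sample values were left unused. From the table, mean TPM, medians, shares of cells above 1 TPM with exact 95% intervals and log2 folds with a pseudocount of 1 TPM were computed for 40 D1 MSN and 38 D2 MSN, over all cells and within plates. A gene was called past a log2 fold of 1 in size when its mean over the MSN was at least 10 TPM. The members and gene lists were chosen with earlier results of these data known. Chat above 100 TPM set 2 cells apart as cholinergic interneurons. All members are named; of each list, the 3 genes with the highest mean and those past 1 on both large plates (1 such gene is not reported here), and for likeness the 3 genes with the highest r; Nrgn, Camk2n2 and the neighbours of Dgkz were chosen after their values were seen. Gene positions came from GENCODE M21, with the Chrm4 end also from RefSeq. Marker lists covered MSN, D1 MSN, D2 MSN, cholinergic and other interneurons, cortical excitatory neurons, oligodendrocytes, astrocytes, microglia and endothelial cells. Scripts were tested on simulated data. Alternatives changed the pseudocount, mean, scaling, filter, detection limit, cells and plates. Computation used scipy 1.17.1 and numpy 2.4.6 under Python 3.11.15, tables pandas 2.3.3, and plots matplotlib 3.10.9.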

Additional observations from a re-analysis of the deposited data

How the results depend on the processing

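The fold of Dgkz kept its direction and stayed past 1 under all 14 alternatives, from 2.01 with a pseudocount of 10 TPM to 5.46 without plate FACS051_5. Of the 140 member folds under alternatives, 29 moved by more than the SD of the 2 large plates and the folds of Dgkz and Camkk2, past 1 in the main setting, kept their sign. That SD rests on 2 values and ran from 0.0189 for Camk2d to 2.60 for Dgkz. The count of 29 therefore does not measure how firm each fold was. Camkk2 was past 1 in 12 of 14, the exceptions being 0.85 without FACS051_5 and 0.66 with cells of at least 5000 genes. Signs changed for Camk2d in 4 (down to -2.41 among cells of at least 5000 genes), Camk2g in 2 and Camk2a in 1 of 14. The count of members past 1, 2 in the main setting, was 1 without FACS051_5. The count past 1 on both large plates, 1, became 2 with each cell rescaled to 1 median and 0 with the Chat expressing cells kept. The median fold of the members, 0.46, became 0.73 with the same rescaling, which moved all genes by 0.21 as well, and 0.70 without FACS086_4. The count of pathway genes past 1 on both plates, 2, was 0 with a pseudocount of 10 TPM, 1 with the mean of log2 values and 1 with the Chat expressing cells kept. The share of Camk2a in D1 MSN, 13.1%, was 4.83% as a median within cells. That of Dgkz in D1 MSN, 28.8%, was 12.3% as a median within cells, 30.2% without FACS051_5, 30.04% without FACS086_4 and 27.2% without FACS086_9. Of the 18 likest genes, 9 were kept after centring and 7 with Spearman rho. Of 180 shares of cells, 27 left their interval, most with the limit at 0 TPM or among cells of at least 5000 genes. Leaving out each MSN in turn, keeping cells of at least 5000 genes and leaving out the cell in D04 were added after seeing the data; leaving out D04 or the 3 cells with few genes changed no count of members. The cause of these moves was not tested. No paired analysis was possible because the labels number no replicates and each group is 1 sample; the folds within each plate stand beside the pooled ones. Depth is not kept in TPM, and 1 sample a group leaves the spread between animals unknown.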
